A study of Mus musculus with 6 samples.

Results

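Lymphotoxin, its receptor, the BAFF receptor and the receptors that guide B lineage cells through tissues were examined as a set of 9 genes in pro-B cells, bone marrow precursors in which heavy chain rearrangement takes place. The 9 genes were picked by symbol out of 54752 gene identifiers listed in each table: Ltb, Lta, Ltbr, Tnfrsf13c, Cxcr4, Cxcr5, Ccr7, Ccr9 and S1pr1. They were picked with the FPKM values of the 2 genotypes already known, so their genotype differences are given below as a description, and support nothing. Pro-B cells were sorted from bone marrow of adult C57BL/6 mice, with 1 library per mouse. All 6 mice were homozygous for floxed Skiv2l, the gene of the helicase that feeds messenger RNA into the cytosolic exosome. The 3 Skiv2l-deleted mice (Skiv2lfl/fl-Cd79a-Cre) also carried Cre from Cd79a, a gene active across the B lineage. For the 3 control mice (Skiv2lfl/fl) the labels name no Cre, so an effect of Cre cannot be told apart from an effect of the deletion.

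Lymphotoxin beta, encoded by Ltb, is a membrane protein that anchors lymphotoxin alpha, encoded by Lta, at the cell surface, and the complex signals through the lymphotoxin beta receptor on stromal and myeloid cells. The BAFF receptor, encoded by Tnfrsf13c, is a receptor of the same wider family that sustains maturing B cells through the non-canonical NF-kB pathway. The other 5 genes encode G protein-coupled receptors that steer migration. CXCR4 retains B cell precursors next to bone marrow stroma that makes CXCL12, and CXCR5 and CCR7 lead B cells into follicles and to the T cell zone. CCR9 is known for guiding cells to thymus and gut, and S1PR1 lets lymphocytes leave a tissue toward blood or lymph.

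Skiv2l measured 25.4, 20.2 and 46.3 FPKM in controls 1, 2 and 3, against 9.53, 16.1 and 10.9 FPKM in Skiv2l-deleted 1, 2 and 3 (log2 fold change -1.21 ± 0.32 (SE), with a limma adjusted p = 0.063), with all controls above all Skiv2l-deleted values. The sources used here do not say which exons were floxed or which surface markers defined the sort, so reads from undeleted exons may remain in these values. Within each genotype Skiv2l was highest in the library with the most myeloid RNA (control 3 and Skiv2l-deleted 2, below). The part of other cells in these values was not tested. Cd79a, whose locus drives the Cre, fell from 702 ± 53.8 to 392 ± 42.5 FPKM (SD, n = 3 mice per genotype; limma adjusted p = 0.0123). Aligned bases came to 1.74 to 2.40 Gb per library. Pro-B markers were present throughout, with Rag1, a recombinase gene, at 80.9 to 197 FPKM. Control 3 and Skiv2l-deleted 2 stood apart from the other 4 libraries on the second principal component, which held 33.1% of the variance. Those 2 libraries also held the most myeloid RNA. The summed FPKM of 14 myeloid markers was 139, 500.4 and 1618 in controls 1, 2 and 3 and 404, 2902 and 88.3 in Skiv2l-deleted 1, 2 and 3. The granule gene Mpo showed the split, at 343 and 641 FPKM in those 2 libraries against 4.30 to 8.99 in the other 4. Not all of the 14 markers did, since S100a8, S100a9, Ngp and Camp were also high in control 2 and Skiv2l-deleted 1. Ngp measured 0.221, 58.3 and 25.2 FPKM in controls 1, 2 and 3. In Skiv2l-deleted 1, 2 and 3 Ngp measured 49.6, 29.7 and 0.156 FPKM.

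Ltb and Lta share a short cluster with Tnf on chromosome 17, and their promoters are shown because they are the lymphotoxin genes whose levels were higher in every Skiv2l-deleted library. The promoter of Tnfrsf13c is shown beside them as an example of a gene whose level was lower in every Skiv2l-deleted library. Cxcr4 was also lower in each of them, and its promoter was found but is not shown. RefSeq promoter sequences (GRCm38.p6), from 250 bases before to 50 after the start, were found for 6 of the 9 genes. Capitals mark matches on either strand to a loose form of the NF-kB site, GGG and CC with NNNNN between them. Neighbouring and overlapping matches run together into 1 stretch.
Ltb, chr17:35194257-35194556, plus strand: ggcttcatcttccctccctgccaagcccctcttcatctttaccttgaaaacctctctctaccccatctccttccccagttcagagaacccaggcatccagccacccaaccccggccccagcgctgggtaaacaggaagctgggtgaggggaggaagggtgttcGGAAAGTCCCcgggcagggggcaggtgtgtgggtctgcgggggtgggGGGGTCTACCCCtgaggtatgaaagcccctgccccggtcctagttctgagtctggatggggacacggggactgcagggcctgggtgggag
Lta, chr17:35205302-35205601, minus strand: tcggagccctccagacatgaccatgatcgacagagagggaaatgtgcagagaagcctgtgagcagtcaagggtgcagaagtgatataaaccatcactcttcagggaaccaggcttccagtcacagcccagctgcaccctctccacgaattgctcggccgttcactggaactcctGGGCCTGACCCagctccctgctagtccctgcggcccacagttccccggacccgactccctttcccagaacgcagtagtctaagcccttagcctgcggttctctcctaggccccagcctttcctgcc
Tnfrsf13c, chr15:82224331-82224630, minus strand: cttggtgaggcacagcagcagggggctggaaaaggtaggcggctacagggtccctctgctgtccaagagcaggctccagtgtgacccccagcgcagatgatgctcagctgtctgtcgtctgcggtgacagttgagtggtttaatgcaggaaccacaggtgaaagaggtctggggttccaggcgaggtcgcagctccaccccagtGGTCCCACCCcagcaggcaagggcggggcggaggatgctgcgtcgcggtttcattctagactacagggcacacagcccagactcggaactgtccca
The Ltb promoter held 5 matches in 2 stretches, the first of them at -87 from the start, while Lta held 2 overlapping matches and Tnfrsf13c 1. Among the promoters found but not shown, Ccr9 held 2 matches in 2 stretches, Ltbr 1 and Cxcr4 0. At least 1 such match stood in 50.8% of 32851 promoters of the same length. GAGGAA, the core of sites for the myeloid and B cell factor PU.1, occurred 1 time each in the Ltb and Ltbr windows. It was not in those of Lta, Tnfrsf13c, Cxcr4 and Ccr9, and stood in 28.3% of all promoters. CANNTG, the E-box, occurred 1 time each in Ltb, Lta and Ltbr, 2 times in Ccr9, 4 times in Tnfrsf13c and 0 times in Cxcr4. At least 1 E-box stood in 72.3% of all promoters. These are matches of letters, and binding was not measured.

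In control pro-B cells the 9 genes spanned a wide range of FPKM, a level scaled to transcript length that lets genes be ranked. Cxcr4 led at 392 ± 37.0 FPKM (SD, n = 3), a level above 98.8% of the 13539 genes tested. It was followed by Tnfrsf13c at 40.6 ± 1.48, Ccr7 at 25.0 ± 6.98, Ltb at 18.4 ± 2.96, S1pr1 at 10.3 ± 1.25 and Cxcr5 at 3.41 ± 0.574 FPKM. Ltbr (1.5 ± 1.72), Lta (0.390 ± 0.201) and Ccr9 (0.167 ± 0.0945 FPKM) came last. The ranges of neighbours in this order overlapped for Ccr7 and Ltb, for Cxcr5 and Ltbr, for Ltbr and Lta, and for Lta and Ccr9, so the order within those pairs is not resolved. In Skiv2l-deleted cells Ltb stood second, below Cxcr4 and above Tnfrsf13c with no overlap of ranges. There S1pr1 and Ccr7 came next after Tnfrsf13c, with overlapping ranges.

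**Figure D1:**
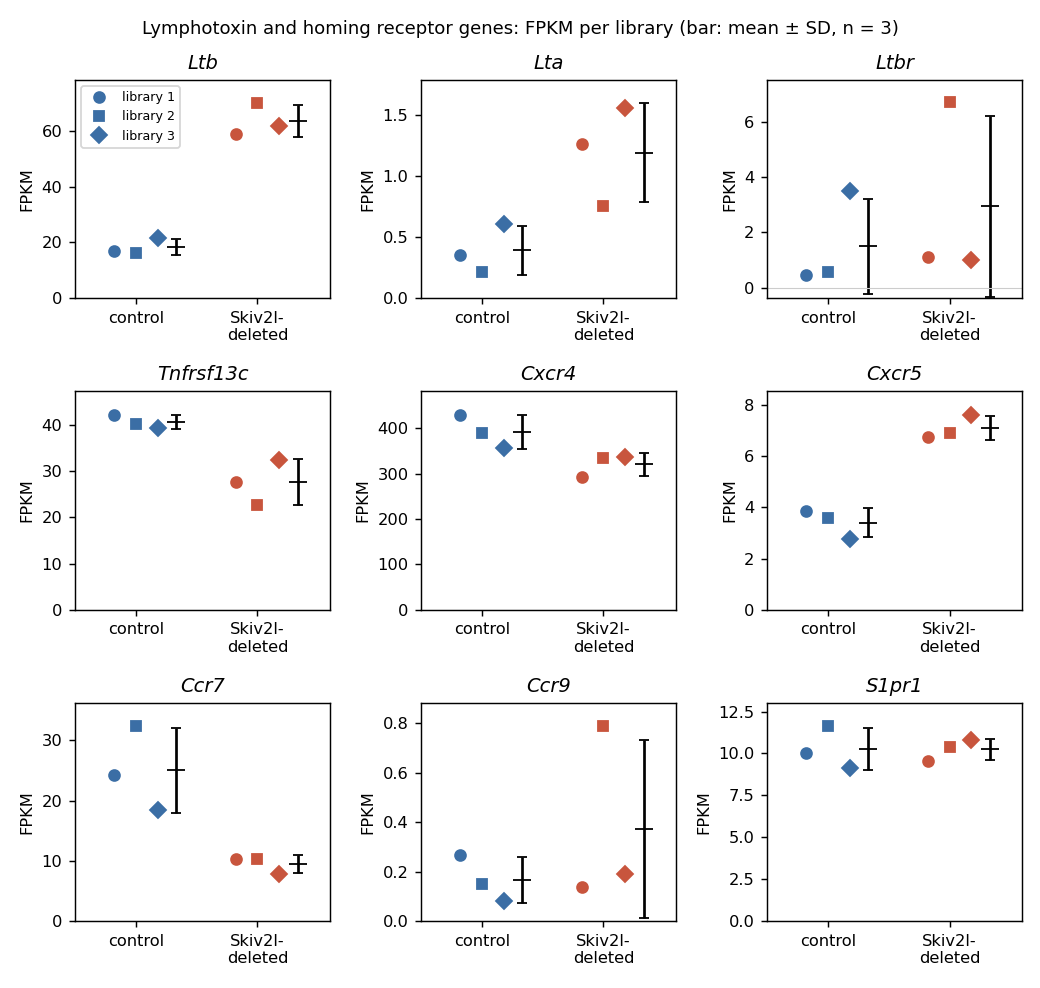
FPKM (vertical axes, linear) of each of the 9 genes in the 3 control (blue) and 3 Skiv2l-deleted (red) libraries, with symbols for libraries 1 to 3 and black bars for the mean ± SD. Ltb, Lta and Cxcr5 were higher and Tnfrsf13c, Cxcr4 and Ccr7 lower in every Skiv2l-deleted library, while Ltbr, Ccr9 and S1pr1 overlapped.

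Of the 9 genes, 7 reached 1 FPKM in at least 3 libraries and entered the fit over all genes, and Lta and Ccr9 did not. Among those 7, 2 passed the threshold of the limma fit upward (Ltb and Cxcr5) and 1 downward (Ccr7), where 4.97% of all 13539 genes tested passed upward, 3.87% downward and 8.84% in either direction. Control and Skiv2l-deleted values did not overlap in 5 of the 7, where the same held for 32.2% of all genes tested. Nothing is read from these counts, since the genes were picked on this contrast. The median log2 fold change of the 7 was 0.00, against 0.06 over all genes tested. Without Skiv2l-deleted 1 or without Skiv2l-deleted 3, 1 of the genes tested passed, Ltb.

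Among the ligands, Ltb (ENSMUSG00000024399.5, chromosome 17, 35194439 to 35196320, plus strand) was the more abundant and was higher in Skiv2l-deleted cells. It measured 17.03, 16.3 and 21.8 FPKM in controls 1, 2 and 3, against 58.8, 69.9 and 61.9 FPKM in Skiv2l-deleted 1, 2 and 3. The lowest Skiv2l-deleted library was far above the highest control, and each group was tight. The mean was 3.46-fold higher, and the log2 fold change, on log2(FPKM + 1), was 1.74 ± 0.14 (SE). With control 3 and Skiv2l-deleted 2 left out the ratio of means was 3.62. Of the 13539 genes tested, 29 including Ltb had a log2 fold change as high or higher. The mean coverage of Ltb was 23.0 to 108 reads per base, so its values rest on many reads. The annotation gives Ltb 3 transcripts, and the miRNA gene Mir6973a lies inside it on the same strand.

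Lta (ENSMUSG00000024402.5, chromosome 17, 35203165 to 35205351, minus strand) encodes the soluble partner and was barely detected. It measured 0.352, 0.211 and 0.608 FPKM in controls 1, 2 and 3, against 1.26, 0.757 and 1.55 FPKM in Skiv2l-deleted 1, 2 and 3. The groups did not overlap, but Skiv2l-deleted 2 came close to control 3. The mean was 3.05-fold higher, from a mean coverage of only 0.390 to 3.73 reads per base. In the 4 libraries without control 3 and without Skiv2l-deleted 2 the ratio of means was 4.996. In both groups Lta was therefore a minor message beside Ltb.

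The receptor of the pair, Ltbr (ENSMUSG00000030339.7, chromosome 6, 125306571 to 125313885, minus strand), did not separate by genotype. It measured 0.453, 0.560 and 3.49 FPKM in controls 1, 2 and 3, against 1.11, 6.72 and 0.986 FPKM in Skiv2l-deleted 1, 2 and 3. The 2 high values belong to control 3 and Skiv2l-deleted 2, the same 2 libraries that held the most myeloid RNA, and the part of myeloid cells in them was not tested. In the other 4 libraries both Skiv2l-deleted values lay above both controls, with a ratio of means of 2.07. Over 6 libraries the log2 fold change was 0.56 ± 0.64. The TNF receptor gene Tnfrsf1a, from the same family, showed the same split, at 8.95 and 19.2 FPKM in those 2 libraries against 1.67 to 3.77 in the other 4. Ltb did not show this split across the 6 libraries. Within each genotype, though, Ltb was also highest in those libraries, at 21.8 FPKM in control 3 and 69.9 FPKM in Skiv2l-deleted 2. The part of myeloid cells in Ltb was not tested. S1pr1 did not follow the split, with its lowest value, 9.15 FPKM, in control 3.

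**Figure D2:**
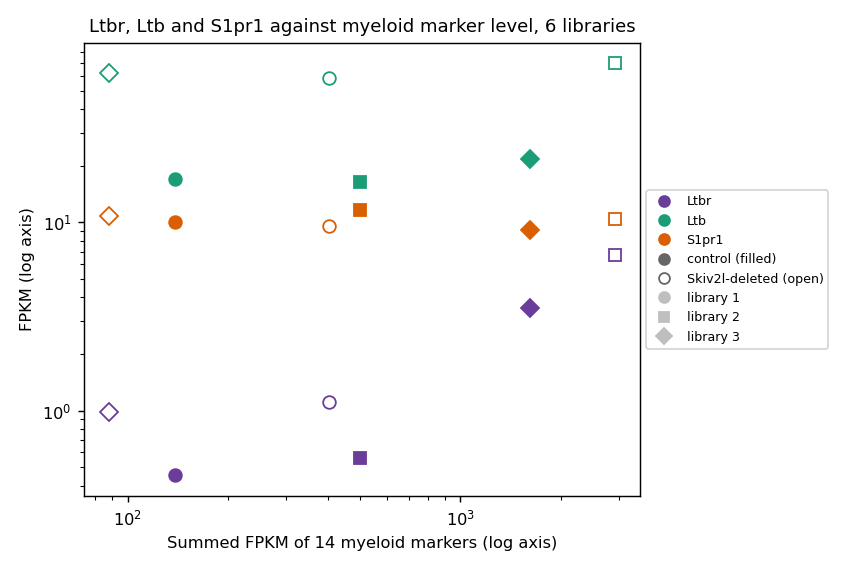
FPKM of Ltbr, Ltb and S1pr1 (vertical log axis) against the summed FPKM of 14 myeloid markers (horizontal log axis) in the 6 libraries; filled symbols are controls, open symbols Skiv2l-deleted, and circle, square and diamond mark libraries 1, 2 and 3. Ltbr was highest in the 2 libraries with the most myeloid RNA (3.49 and 6.72 FPKM). All Skiv2l-deleted values of Ltb lay above all controls, and within each genotype Ltb was also highest in those 2 libraries (21.8 and 69.9 FPKM). S1pr1 stayed between 9.15 and 11.6 FPKM.

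Tnfrsf13c (ENSMUSG00000068105.11, chromosome 15, 82221743 to 82224369, minus strand), the BAFF receptor gene, was lower in Skiv2l-deleted cells. It measured 42.2, 40.2 and 39.3 FPKM in controls 1, 2 and 3, against 27.7, 22.6 and 32.5 FPKM in Skiv2l-deleted 1, 2 and 3. The controls lay close together and above all 3 Skiv2l-deleted libraries, with a 1.47-fold difference of means and a log2 fold change of -0.55 ± 0.14. The second BAFF-binding receptor gene of B cells, Tnfrsf13b (TACI), had a like difference, at 52.8 ± 7.47 in controls and 37.3 ± 1.08 FPKM after deletion (log2 fold change -0.48, limma adjusted p = 0.0615), and passed only with median-ratio rescaling (0.0368). The third, Tnfrsf17 (BCMA), was at 0.348 to 0.538 FPKM in controls and listed at 0 in all 3 Skiv2l-deleted libraries.

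Of the homing receptors, Cxcr4 (ENSMUSG00000045382.6, chromosome 1, 128588199 to 128592293, minus strand) remained by far the most abundant in both genotypes. It measured 430, 389 and 356 FPKM in controls 1, 2 and 3, against 292, 335 and 335 FPKM in Skiv2l-deleted 1, 2 and 3. The groups did not overlap, with a small gap between control 3 and the nearest Skiv2l-deleted libraries. The difference of means was 1.22-fold and the log2 fold change -0.29 ± 0.12. The mean coverage of 486 to 767 reads per base leaves little counting error in these values.

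The follicle and T zone receptors went opposite ways. Cxcr5 (ENSMUSG00000047880.15, chromosome 9, 44511787 to 44561877, minus strand) measured 3.87, 3.59 and 2.76 FPKM in controls 1, 2 and 3, against 6.74, 6.92 and 7.63 FPKM in Skiv2l-deleted 1, 2 and 3. All 3 Skiv2l-deleted values lay well above the controls, and the mean was 2.08-fold higher (log2 fold change 0.88 ± 0.15). Its annotated span overlaps Bcl9l on the opposite strand, and the sources used here do not say whether strand was used. Ccr7 (ENSMUSG00000037944.8, chromosome 11, 99144196 to 99155077, minus strand) measured 24.3, 32.3 and 18.4 FPKM in controls 1, 2 and 3, against 10.4, 10.3 and 7.84 FPKM in Skiv2l-deleted 1, 2 and 3. Each Skiv2l-deleted value was below each control although the controls spread widely, and the control mean was 2.62-fold higher (log2 fold change -1.28 ± 0.22). Within the 4 libraries left without control 3 and Skiv2l-deleted 2 the log2 fold change was 0.79 for Cxcr5 and -1.53 for Ccr7.

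Ccr9 and S1pr1 showed no separation. Ccr9 (ENSMUSG00000029530.16, chromosome 9, 123678439 to 123784330, plus strand) measured 0.268, 0.153 and 0.0810 FPKM in controls 1, 2 and 3, against 0.138, 0.788 and 0.192 FPKM in Skiv2l-deleted 1, 2 and 3. The single higher value was again Skiv2l-deleted 2. That library also had the highest level of Siglech, a marker of plasmacytoid dendritic cells, which are known to carry CCR9, at 6.09 FPKM against 0.137 to 1.04 in the other 5, and the part of such cells was not tested. With a mean coverage of 0.0556 to 0.570 reads per base and 6 other genes overlapping its annotated span, a genotype difference in Ccr9 was not detectable here. The ratio of means was 2.23 over 6 libraries and 0.784 in the 4 without control 3 and without Skiv2l-deleted 2. S1pr1 (ENSMUSG00000045092.8, chromosome 3, 115710433 to 115715072, minus strand) measured 10.05, 11.6 and 9.15 FPKM in controls 1, 2 and 3, against 9.55, 10.4 and 10.8 FPKM in Skiv2l-deleted 1, 2 and 3. The 2 sets of values lay within each other, with a log2 fold change of 0.00 ± 0.13.

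Some marker genes of other cells and stages also differed by genotype. Changes in the number of such cells, in their RNA per cell and in the pro-B cells themselves cannot be told apart in bulk libraries. Of 12 markers of mature B cells, a stage at which Ccr7, Cxcr5 and Tnfrsf13c are known to be expressed, 7 of 10 tested fell and 0 rose. The summed FPKM of the 12 was 625 to 716 in control and 314 to 437 in Skiv2l-deleted mice. Much of the control sum came from antigen presentation genes that fell. These included Cd74 (144 to 199 against 34.2 to 92.6 FPKM), H2-Ab1 (111 to 142 against 52.7 to 62.5 FPKM) and H2-Aa (72.5 to 89.0 against 12.2 to 21.8 FPKM). Of 8 plasma cell markers, 3 of 6 tested fell and 1 rose, with sums of 655 to 899 against 469 to 498 FPKM. These sums hide opposite changes: Jchain fell (36.9 to 75.2 FPKM against at most 0.233) and Igha fell (164 to 380 FPKM against at most 0.302), while Mzb1 rose (211 to 280 against 336 to 363 FPKM). Of 8 markers of early lymphoid progenitors, 6 of 7 tested rose and 0 fell, with sums of 225 to 378 against 636 to 910 FPKM. Most of both sums was Dntt (190 to 335 against 559 to 831 FPKM), which pro-B cells themselves express. Over all genes tested 4.97% rose and 3.87% fell. The part of these cell types in the differences of Ltb, Ccr7, Cxcr5 and Tnfrsf13c was not tested. T cells are known to carry Ccr7 and Ltb as well. Of their markers, Cd3e was listed at 0 in 5 libraries and at 0.106 FPKM in Skiv2l-deleted 2, and Cd3d reached at most 0.527 FPKM, in control 2. Cd4 (at most 0.0383 against 0.0731 to 0.391 FPKM) and Cd247 (0.596 to 1.16 against 1.27 to 1.57 FPKM) were low but higher in each Skiv2l-deleted library. The sum of 14 T and NK cell markers was 35.0 to 47.1 against 42.2 to 66.4 FPKM, of which the kinase gene Lck, at 19.9 to 36.4 FPKM, was a large part. Of those, 1 of 4 tested, Klrb1c, rose. The sums were 16.0 to 232 and 25.7 to 545 FPKM for 12 plasmacytoid dendritic cell markers, mostly Ly6c2, which monocytes also express, and 2 of 5 tested rose (Cox6a2 and Tlr7). They were 9.12 to 16.1 and 4.86 to 221 FPKM for 8 erythroid markers, with 0 of 5 called, and 0.891 to 1.51 and 0.443 to 2.99 FPKM for 7 stromal markers, with none tested and Lepr listed at 0 throughout. Of the 14 myeloid markers 0 of 12 tested passed (0 at an unadjusted limma p under 0.05, as for the erythroid markers). Of 13 pro-B markers 5 rose and 1, Cd24a, fell.

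Downstream of the lymphotoxin beta and BAFF receptors, the non-canonical NF-kB gene Nfkb2 and the feedback gene Tnfaip3 rose and the adaptor gene Traf5 fell. This list of 32 further ligands, receptors, adaptors and NF-kB genes had 27 tested, of which 2 rose, 1 fell and 24 did not pass (11.1% called, against 8.84% of all genes), with a median log2 fold change of 0.02. Nfkb2, whose p100 product is processed to p52, rose from 14.4 ± 1.78 to 26.7 ± 1.79 FPKM (SD over 3 mice each; log2 fold change 0.85 ± 0.13 with limma adjusted p = 0.0128). Tnfaip3, which encodes the inhibitor A20, rose from 13.0 ± 1.68 to 22.1 ± 1.41 FPKM (0.73 ± 0.13, limma adjusted p = 0.0206). Traf5, a signal adaptor of TNF receptors, fell from 32.5 ± 10.9 to 12.8 ± 3.35 FPKM (-1.26 ± 0.27, limma adjusted p = 0.0325). Nfkbia, the most abundant gene of the list, encodes the inhibitor IkB-alpha and stood at 107 ± 20.6 and 63.3 ± 15.5 FPKM (-0.75 ± 0.21, limma adjusted p = 0.0684). It passed in 6 of 17 alternatives, among them both rescalings and the 4 libraries. Tnfrsf13b was second in abundance in controls. The kinase gene Map3k14, which encodes NIK, stood at 7.14 to 9.83 against 9.71 to 12.4 FPKM, and Relb at 8.04 to 12.5 against 9.13 to 11.5 FPKM. The list's count was 0 without Skiv2l-deleted 1 or without Skiv2l-deleted 3, 1 without control 2, and 5 without control 3 or in the 4 libraries.

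**Figure D3:**
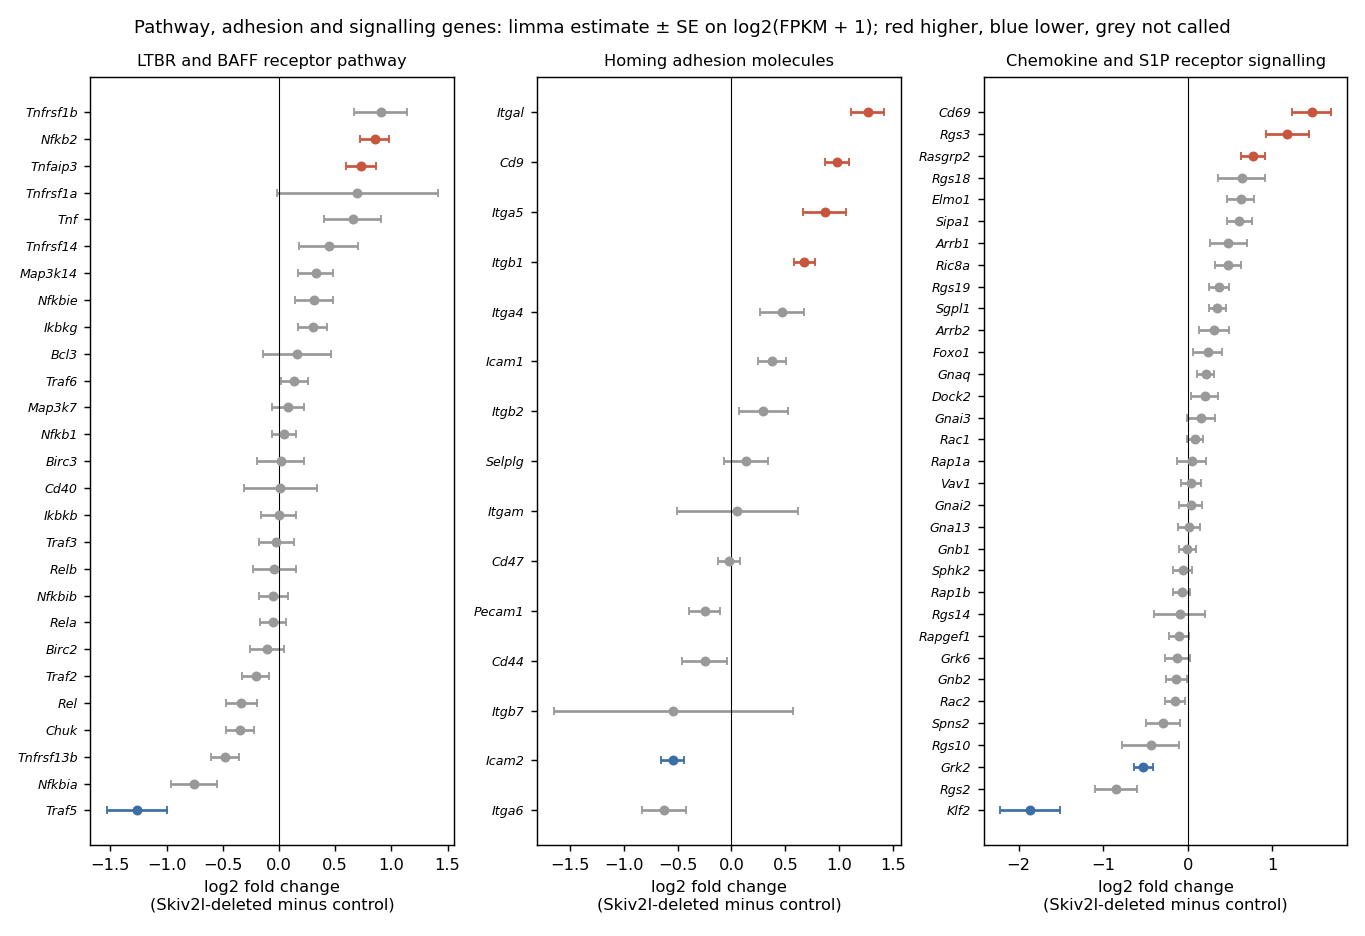
Log2 fold change (horizontal axes, Skiv2l-deleted minus control on log2(FPKM + 1)) with its SE for the tested genes of the receptor pathway, adhesion and signalling lists, except 1 adhesion gene that was not called and is not drawn. Nfkb2, Itgal, Cd9 and Cd69 are among the genes called higher (red), and Traf5, Icam2, Grk2 and Klf2 are called lower (blue).

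Among integrin genes used in homing, Itgal, Itgb1 and Itga5 rose, and Itga4, Itga6, Itgam, Itgb2 and Itgb7 did not pass. Of 18 adhesion genes 16 were tested, of which 4 rose, 1 fell and 11 did not pass (31.2% called, against 8.84% of all genes), with a median log2 fold change of 0.21. Itgal, the alpha chain of LFA-1, rose from 10.04 ± 2.03 to 25.2 ± 1.72 FPKM (log2 fold change 1.26 ± 0.15, with a limma adjusted p = 0.00833). Itgb1, the beta chain of the VLA integrins, rose from 22.8 ± 0.747 to 37.1 ± 1.36 FPKM (0.68 ± 0.10, limma adjusted p = 0.0109), and Itga5, one of its partners, rose by 0.86 (limma adjusted p = 0.0426). The tetraspanin gene Cd9 rose from 7.57 ± 0.555 to 15.8 ± 0.381 FPKM (0.98 ± 0.11, limma adjusted p = 0.00712). Icam2, which encodes a ligand of LFA-1, fell from 59.5 ± 3.02 to 40.4 ± 3.04 FPKM (-0.55 ± 0.10, limma adjusted p = 0.0242). Selplg, which encodes the selectin ligand PSGL-1, was among the most abundant genes of the list, and its groups overlapped at 77.2 to 102 against 78.5 to 132 FPKM. Itgal and Cd9 passed in each of the 6 omissions of 1 library, Itgb1 in 4, Icam2 in 2 and Itga5 in 1. The count was 2 without Skiv2l-deleted 1 or without Skiv2l-deleted 3, and 3 without control 1 or without control 2.

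Genes that act on chemokine and S1P receptors moved both ways. Of 36 such genes in the files 33 were tested, of which 3 rose, 2 fell and 28 did not pass (15.2% called, against 8.84% of all genes), with a median log2 fold change of 0.05. Cd69, whose product binds S1PR1 and takes it off the surface, rose from 15.2 ± 5.24 to 42.3 ± 0.282 FPKM (1.47 ± 0.23, limma adjusted p = 0.0142). Klf2, which encodes a factor known to activate S1pr1 transcription, fell from 66.0 ± 23.2 to 17.9 ± 8.19 FPKM (-1.86 ± 0.35, limma adjusted p = 0.0242), while S1pr1 itself showed no separation. Grk2, which encodes a kinase that desensitises these receptors, fell from 479 ± 28.6 to 333 ± 25.2 FPKM (-0.53 ± 0.11, limma adjusted p = 0.0314). The regulator gene Rgs3 rose by 1.18 (limma adjusted p = 0.0337), and Rasgrp2, which encodes the Rap1 activator between chemokine receptors and integrins, rose by 0.77 (limma adjusted p = 0.0236). Gnai2, the inhibitory G protein through which chemokine receptors signal, overlapped at 246 to 313 against 251 to 308 FPKM. The count was 0 without control 1, Skiv2l-deleted 1 or Skiv2l-deleted 3, 1 without control 2, 8 without control 3 and 9 in the 4 libraries. Cd69 passed in 3 of 6 omissions of 1 library, Klf2 in 2, and Grk2, Rgs3 and Rasgrp2 in 1 each. Grk2 did not pass in the 4 libraries (limma adjusted p = 0.0524).

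The other homing receptors were mostly silent. Of 27 further chemokine, S1P and related receptors 4 reached the level for testing, and by limma 0 of them passed (0 at an unadjusted p under 0.05). S1pr4 was the most abundant, at 36.0 to 42.0 against 38.4 to 43.8 FPKM. Ccr2, a receptor of monocytes, stood at 13.1 and 27.2 FPKM in control 3 and Skiv2l-deleted 2 and at 0.780 to 2.92 in the other 4, as Ltbr did. Of 5 ligand genes, Cxcl13, Ccl19 and Ccl21a were listed at 0 in all 6 libraries, Cxcl12 was at most 0.443 FPKM, and Ccl25, the ligand of CCR9, overlapped at 4.28 to 7.27 against 3.54 to 5.05 FPKM.

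Ltb and Lta start 8.73 kb apart by their lowest coordinates, with Tnf between them, and Skiv2l begins 355 kb from Ltb on the same chromosome. Of 27 tested genes starting within 200 kb of Ltb, other than the 9, 2 rose and 1 fell (against 4.97% and 3.87% of all genes tested), with a median log2 fold change of 0.16 against 0.06 over all genes. The count called is near the 8.84% of all genes. The genes that rose were Mir6973a, whose reads cannot be separated from those of Ltb around it, and Gm11131 (0.55 ± 0.13, limma adjusted p = 0.0476). Ddah2 fell from 64.0 ± 7.02 to 33.4 ± 3.45 FPKM (-0.92 ± 0.13, limma adjusted p = 0.0103). Tnf, which encodes the third ligand of the cluster, measured 0.457, 0.373 and 1.48 FPKM in controls 1, 2 and 3, against 1.49, 1.58 and 2.02 FPKM in Skiv2l-deleted 1, 2 and 3. Its groups all but touch, and it did not pass (log2 fold change 0.66 ± 0.25, with a limma adjusted p = 0.162). The count was 0 without Skiv2l-deleted 1 or without Skiv2l-deleted 3.

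**Figure D4:**
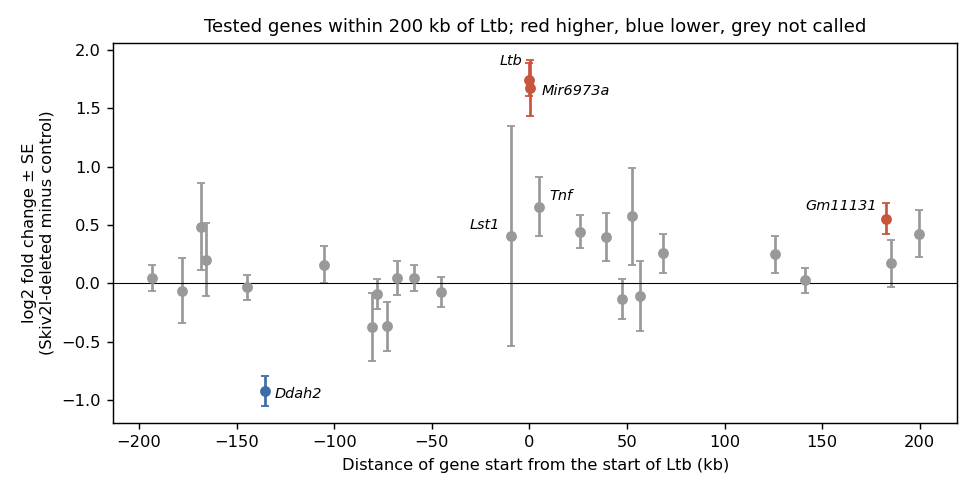
Log2 fold change with its SE (vertical axis, Skiv2l-deleted minus control on log2(FPKM + 1)) of the tested genes whose start lies within 200 kb of that of Ltb (horizontal axis, distance in kb). Ltb (1.74) and Mir6973a inside it (1.67) stand above the neighbours, and Ddah2 (-0.92) stands below.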

How the data were processed

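Messenger RNA of sorted pro-B cells was measured in 6 libraries, 3 control and 3 Skiv2l-deleted, grouped by the titles and genotypes in the labels. The authors deposited per gene FPKM, TPM and coverage (signal, the mean reads per base), per the file headers. Reads were placed on GRCm38 (per the submitters' processing notes), and the libraries were strand-specific, per the labels' protocols. The sources used here name no aligner or quantification tool and do not say how strand was used. No read counts are in the tables, so no count model was used.

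Identifiers on several lines (7 to 9 per table) were summed. Genes that reached 1 FPKM in 3 or more libraries (13539) were fitted with limma 3.58.1 (R 4.3.3, eBayes with trend) on log2(FPKM + 1), genotype as the only term, and called at a Benjamini-Hochberg adjusted p below 0.05. This scale understates changes of low genes. P-values set the genotype difference against the spread between these 3 mice per group, with variances moderated over all genes tested. The fit was tested on simulated data. Aligned bases came from the ratio of coverage to FPKM in single-transcript genes. Coordinates and transcripts are those of GENCODE M21 (GRCm38), identical to the files for all 9 genes.

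The 9 genes, the 14 lists and the motifs were chosen with earlier results of these data known. Named are the 9 genes, per list up to 6 called genes in each direction and the 2 most abundant, the called neighbours of Ltb and Tnf. Tnfrsf1a, Tnfrsf17, Map3k14, Relb and the named markers were added after their values were seen. Some genes stand in more than 1 list, among them Tnfrsf17 and Itgam. Values of some named genes are not reported here. Adrbk1 is the older symbol of Grk2. The 17 alternatives covered pseudocounts, filters, TPM, rescaling, the variance trend, a replicate block and omitted libraries.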

Additional observations from a re-analysis of the deposited data

How the results depend on the processing

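Of the 7 genes with a fitted difference, Ltb, Ltbr, Tnfrsf13c, Cxcr4, Cxcr5 and Ccr7 kept its direction in each of the 17 alternatives that fitted them, and S1pr1 moved between -0.08 and 0.08. Without a filter on low values the calls were 512 over all genes, 1 of the 9 genes, 0 of the signalling genes (12 at an unadjusted limma p under 0.05) and 1 neighbour of Ltb, where more genes share the adjustment. A filter of 5 FPKM also left 1 neighbour, with fewer genes tested. The receptor pathway list had 5 calls with TPM, with median-ratio rescaling, with immunoglobulin and T cell receptor segments left out, and in the 4 libraries that remain when control 3 and Skiv2l-deleted 2 are omitted, where the signalling list had 9. The cause was not tested.

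The replicate numbers shared by the genotypes showed no sign of pairing the mice: same-numbered libraries deviated with correlations of 0.09, -0.43 and -0.35. The highest correlation, 0.557, was between control 3 and Skiv2l-deleted 2. With 3 libraries per group these values cannot exclude a pairing. With the replicate number as a block, 365 genes were called, 0 of the receptor pathway (7 at an unadjusted limma p under 0.05), 2 of the 9 genes, 2 adhesion genes and 1 signalling gene.

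When 1 library was left out, calls ranged from 179 to 1749 over all genes, from 1 to 3 of the 9 genes, from 0 to 5 in the receptor pathway, from 2 to 6 among adhesion genes, from 0 to 8 among signalling genes and from 0 to 4 among neighbours. The order of the 9 genes in controls kept all 9 places. Depth limits Lta and Ccr9 most.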

Other observations

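Among tested genes outside the 9, those whose centred log2(FPKM + 1) profile over the 6 libraries came nearest to Ltb were Crhbp, which encodes a binding protein of corticotropin-releasing hormone, Igfbp4, which encodes a binding protein of insulin-like growth factors, and Glipr2. Their root mean square differences from Ltb were 0.16, 0.17 and 0.17 on the log2 scale. Igfbp4 measured 16.1, 12.7 and 24.6 FPKM in controls 1, 2 and 3, against 60.6, 59.6 and 56.0 FPKM in Skiv2l-deleted 1, 2 and 3, close to Ltb in level as well. Crhbp was a low gene, at 1.44 ± 0.0727 and 7.02 ± 1.34 FPKM (SD, n = 3).

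Nearest to Ccr7 were Brwd1, which encodes a chromatin protein needed for light chain rearrangement, Gk5 and the variable segment Ighv14-1, with differences of 0.16, 0.17 and 0.18. Brwd1 measured 10.4, 15.4 and 10.9 FPKM in controls 1, 2 and 3, against 5.61, 5.03 and 4.26 FPKM in Skiv2l-deleted 1, 2 and 3. As for Ccr7, control 2 was the highest library and Skiv2l-deleted 3 the lowest. These likenesses come from 6 libraries of 2 genotypes and are given with no p.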
